A study of Mus musculus with 21 samples.

Results

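In total, 10 imprinted genes were followed through the 21 libraries, namely the coding genes Igf2, Igf2r, Cdkn1c, Grb10, Mest and Peg3, and the noncoding genes H19, Peg13, Kcnq1ot1 and Airn. They were taken by symbol from the 23827 rows that each file lists, and all 10 were found and tested in every comparison. All embryos were taken at embryonic day 14.5 (E14.5) and carried 1 copy of Gt(ROSA)26Sor-mCherry-Rpl10a. This allele makes an mCherry-tagged ribosomal protein from the CAGGS promoter once Cre has removed a stop cassette. Precipitating the tag isolates the RNA on the ribosomes of the labelled cells (translating ribosome affinity purification, TRAP). In Sox2Cre+/-;Gt(ROSA)26Sor-mCherry-Rpl10a+/- embryos, in which nearly every cell of the embryo proper is labelled, total RNA (the transcriptome) and tagged ribosome RNA (the translatome) were sequenced from forebrain and from kidney. In Cdh5CreERT2+/-;Gt(ROSA)26Sor-mCherry-Rpl10a+/- embryos, whose Cre acts in endothelial cells (ECs) after tamoxifen, the translatome of forebrain ECs and of kidney ECs was sequenced. In Emx1Cre+/-;Gt(ROSA)26Sor-mCherry-Rpl10a+/- embryos the translatome came from the Emx1 lineage, the neural cells of the dorsal telencephalon and all their descendants. Each of the 7 groups had 3 libraries, and the forebrain included part of the diencephalon. The paper describes homogenizing tissue from single embryos or pairs of embryos.

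An imprinted gene is read mainly from the copy inherited from 1 parent, under the control of methylation set in the egg or sperm. Such genes lie in clusters, where a control region governs several genes at a distance, often through a long noncoding RNA. The coding genes studied here set fetal growth. Igf2 encodes insulin-like growth factor 2, and Igf2r encodes the receptor that takes this factor to the lysosome. Grb10 encodes an adaptor that damps insulin and IGF receptor signalling. Cdkn1c encodes the cell cycle inhibitor p57Kip2, Mest a protein of the alpha/beta hydrolase fold, and Peg3 a zinc finger protein. H19 is a long noncoding RNA beside Igf2, read from the maternal copy when Igf2 is read from the paternal one. Kcnq1ot1 and Airn are long nuclear RNAs that silence neighbouring genes, Cdkn1c and Igf2r among them, on the paternal copy. Peg13 is a noncoding RNA inside an intron of Trappc9. These libraries do not separate the parental copies, so every value is the sum of both.

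In GRCm38 (GENCODE vM21), Igf2 lies at chr7:142650766-142666816, H19 at chr7:142575529-142578143, Cdkn1c at chr7:143458339-143461050 and Kcnq1ot1 at chr7:143203458-143296549, all on the minus strand. Peg3 lies on the same chromosome at chr7:6703892-6730431 (minus). Airn (chr17:12741311-12860136, plus) starts inside Igf2r (chr17:12682406-12769664, minus). The other places are chr15:72805600-72810324 for Peg13 (minus), chr6:30723547-30748465 for Mest (plus) and chr11:11930508-12038683 for Grb10 (minus). The kit does not mark strand, so reads where genes overlap on opposite strands cannot be told apart. Kcnq1ot1 lies wholly within Kcnq1 on the opposite strand, with 121 bases of shared exon. Mest shares 912 exon bases with the end of Copg2, which is 23.1% of its annotated exon bases. The antisense gene Igf2os shares 98 exon bases with Igf2, and Airn shares none with Igf2r. Larger overlaps were Gm49394, on the same strand, with 3596 exon bases of Igf2 (62.8%), and the antisense gene Gm44732, with 625 of Cdkn1c (30.7%).

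H19 and Mest each host a microRNA. Its hairpin is exonic in H19 and intronic in Mest. The mature sequences (RefSeq, GRCm38.p6) are shown because they are the short products of the most abundant noncoding and the most abundant coding member. The seed, bases 2 to 8, is in capitals, and all 4 seeds differ.
mmu-miR-675-5p (H19, chr7:142577112-142577133, minus): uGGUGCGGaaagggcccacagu
mmu-miR-675-3p (H19, chr7:142577078-142577099, minus): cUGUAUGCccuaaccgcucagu
mmu-miR-335-5p (Mest, chr6:30741314-30741336, plus): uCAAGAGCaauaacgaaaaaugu
mmu-miR-335-3p (Mest, chr6:30741354-30741375, plus): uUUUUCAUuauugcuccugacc
These libraries measured long RNA, and the mature microRNAs were not measured. The Mir675 row held 0 reads in all 21 libraries, although H19 itself held up to 303337. All 84 bases of Mir675 lie in H19 exon on the same strand. Reads there cannot be told apart from H19 reads, so the 0 is not read as absence of that RNA. The Mir335 row held 15, 13 and 15 reads in the kidney transcriptome and at most 3 in any other library.

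RefSeq's table held promoters (250 bases before to 50 after a start) for 7 of the 10 genes, 13 in all. H19, Cdkn1c and Peg13 had none. They were searched on both strands for TGCCGC, the methylated motif of ZFP57, which maintains imprints, for GGNGGCAG, the core of the CTCF motif, and for AANATGGCG, the motif of YY1. Among all 32851 promoters of that length, 11.6% held the first, 12.6% the second and 2.38% the third. The first was found at Mest, Igf2 and Grb10 starts, the second at Igf2 and Grb10 starts, and the third at none of the 13. Windows with matches, from Mest, Grb10 and Igf2, are printed. These 3 genes were higher in brain ECs than in the brain translatome and higher in kidney than in brain. So were Peg3, Igf2r and Airn, whose windows held none of the 3 motifs. The printed windows were chosen after these values were seen. Capitals mark the matches, and they are descriptions of letters, not binding sites.
Mest (chr6:30737800-30738099, plus): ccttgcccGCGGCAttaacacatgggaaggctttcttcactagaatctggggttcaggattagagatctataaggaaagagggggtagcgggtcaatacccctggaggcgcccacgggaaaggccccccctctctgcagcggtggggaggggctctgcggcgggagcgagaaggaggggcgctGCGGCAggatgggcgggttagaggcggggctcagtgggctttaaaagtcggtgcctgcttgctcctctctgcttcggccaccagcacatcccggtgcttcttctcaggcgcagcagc
Grb10 (chr11:12037371-12037670, minus): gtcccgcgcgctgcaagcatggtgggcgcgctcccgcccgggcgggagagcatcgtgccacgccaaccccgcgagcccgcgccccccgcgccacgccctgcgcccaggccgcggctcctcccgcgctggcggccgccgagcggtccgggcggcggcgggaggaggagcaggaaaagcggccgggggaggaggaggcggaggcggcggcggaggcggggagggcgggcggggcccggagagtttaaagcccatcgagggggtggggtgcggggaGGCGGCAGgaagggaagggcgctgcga
Igf2 (chr7:142661222-142661521, minus): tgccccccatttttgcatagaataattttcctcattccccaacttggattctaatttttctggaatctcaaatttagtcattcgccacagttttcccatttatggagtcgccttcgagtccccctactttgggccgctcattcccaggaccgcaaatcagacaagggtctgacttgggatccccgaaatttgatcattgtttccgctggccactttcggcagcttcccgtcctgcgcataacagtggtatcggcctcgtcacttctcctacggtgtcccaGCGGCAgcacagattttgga
Igf2 (chr7:142658755-142659054, minus): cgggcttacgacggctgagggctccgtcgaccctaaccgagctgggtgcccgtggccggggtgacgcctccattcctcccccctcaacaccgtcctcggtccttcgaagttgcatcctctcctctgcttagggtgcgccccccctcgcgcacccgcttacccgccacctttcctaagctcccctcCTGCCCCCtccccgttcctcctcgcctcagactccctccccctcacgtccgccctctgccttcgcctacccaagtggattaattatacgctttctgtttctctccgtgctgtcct
The Mest window held 2 matches to the ZFP57 motif and 17 CpG, as did the window of a Mest start 3 bases further on, which is not printed. The Grb10 window held 1 match each to the ZFP57 and CTCF motifs and 45 CpG. The first Igf2 window held 1 ZFP57 match and 14 CpG, and the second 1 CTCF match and 24 CpG. The median over all promoters was 7 CpG. The members' windows without a match held 2 and 7 CpG at Igf2, 8 at Mest and 9 at Grb10. They held 3 at Airn, 9 at Kcnq1ot1, 13 at Peg3 and 34 at Igf2r. The printed windows were picked for their matches, and the ZFP57 motif itself contains a CpG. Their CpG numbers therefore say nothing about the members as a set.

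Between 21760652 and 79231692 reads were counted on genes per library. The groups carried the markers of their labels. The summed level of 9 endothelial markers was 2731 to 2828 RPKM in brain ECs and 2332 to 2739 in kidney ECs, against 144 to 163 in the brain translatome, 422 to 454 in the kidney translatome and 12.5 to 14.9 in the Emx1 lineage. RPKM is a gene's read count scaled by transcript length and by the reads of the library. The brain EC libraries still held neural RNA, with 6 neural markers at 369 to 480 RPKM against 2246 to 2260 in the brain translatome. ECs and the Emx1 lineage were each sequenced in runs of their own, so run and group cannot be told apart there. Neither the brain nor the kidney transcriptomes and translatomes were all in the same run, so other comparisons can also carry run differences.

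**Figure D1:**
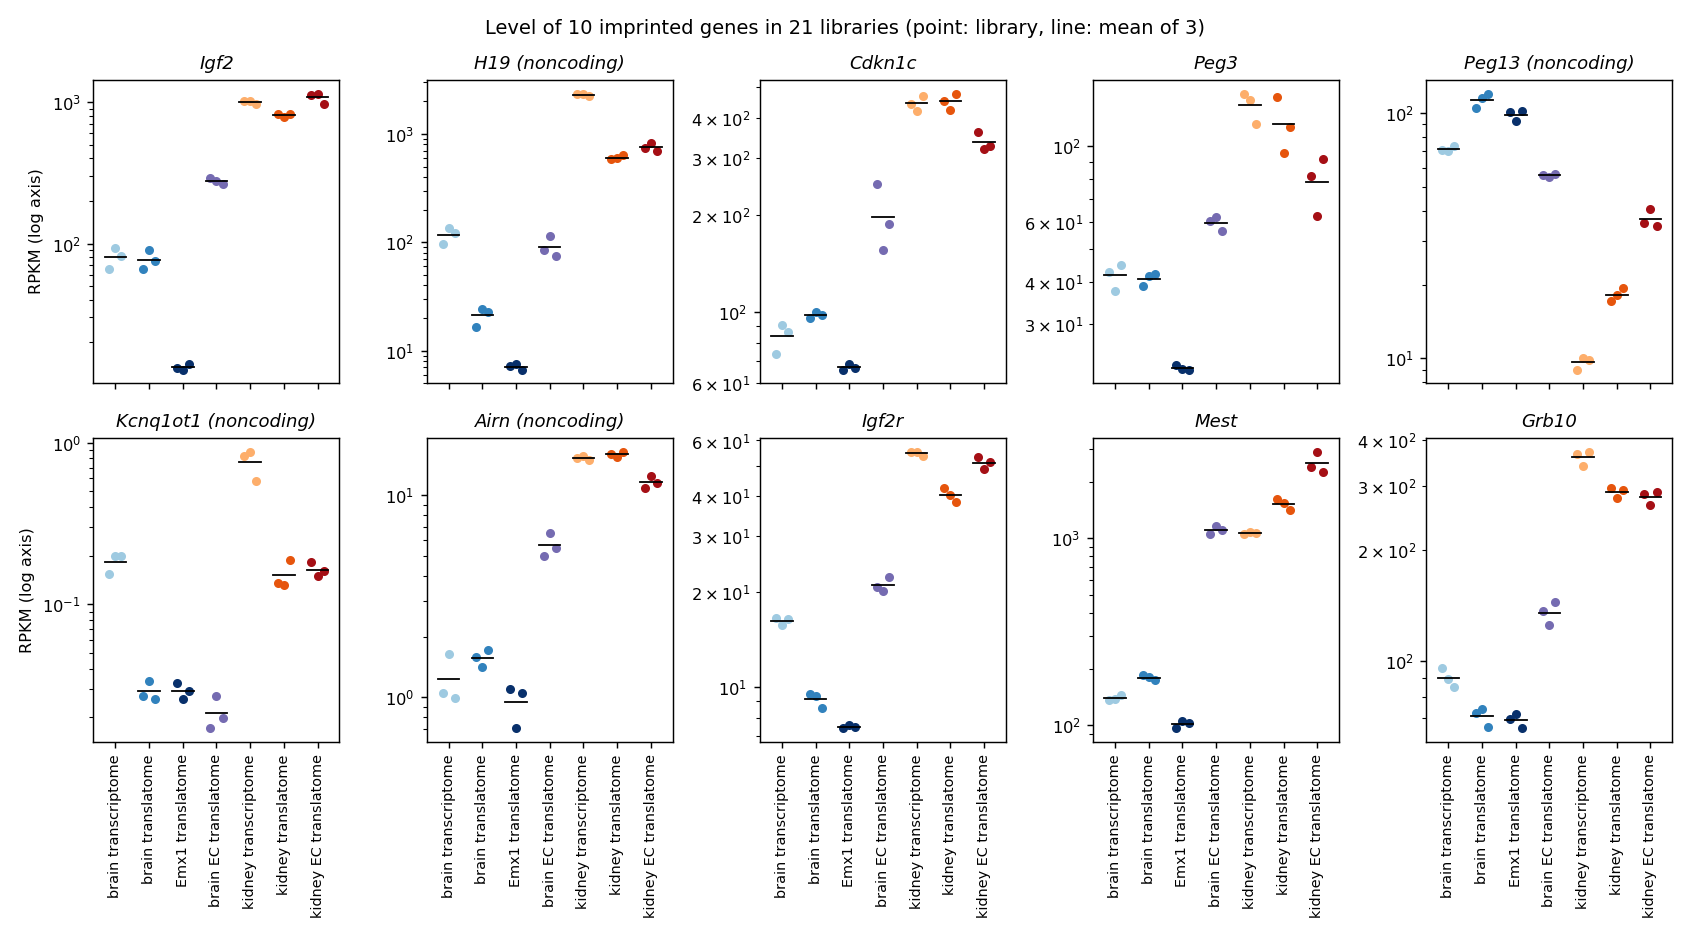
Level of each of the 10 genes in every library, in RPKM on a log axis of its own for each panel. Points are the 3 libraries of a group, lines their mean. Peg13 is the gene whose brain groups all lie above its kidney groups.

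The levels spanned a wide range across the groups. Mest was the highest coding member, from 102 ± 4.27 RPKM (SD, n = 3) in the Emx1 lineage to 2516 ± 332 in kidney ECs. Igf2 ran from 13.4 ± 0.565 in the Emx1 lineage to 1084 ± 93.7 in kidney ECs, and its kidney EC and kidney transcriptome libraries overlapped. H19 ran from 7.14 ± 0.410 in the Emx1 lineage to 2302 ± 77.0 in the kidney transcriptome. All 3 were thus lowest in the Emx1 lineage. Peg13 went the other way, from 9.63 ± 0.553 RPKM in the kidney transcriptome to 114 ± 7.59 in the brain translatome, with no overlap between any neighbouring groups in that order. Kcnq1ot1 was the lowest member, from 0.0214 ± 0.00508 in brain ECs to 0.763 ± 0.159 in the kidney transcriptome. Its reads were few (67 to 3520 a library) for a row of about 83988 bases, and its order among the brain translatome groups was not resolved. Airn rested on 16 to 731 reads a library. Its RPKM is not a fixed multiple of its reads, because the transcript length behind it varied from 564 to 1111 bases between libraries, so counts were used for its tests.

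The first question was which of these RNAs were more or less abundant on ribosomes than in total RNA. Among the noncoding genes the answer was not uniform. H19 and Kcnq1ot1 were several-fold lower in the translatome of both organs, Airn was not called in either, and Peg13 was higher in both. In brain, 2 of the 10 genes were higher and 4 lower at an adjusted p under 0.001 (edgeR), where 18.6% of all 19446 tested genes were higher and 18.5% lower. In kidney, 2 were higher and 3 lower, against 14.9% and 15.8% of 19336.

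H19 had 95.4, 135 and 123 RPKM in the 3 brain transcriptomes and 16.5, 24.4 and 22.7 in the brain translatomes of the same tissue samples. In kidney it had 2356, 2336 and 2214 RPKM in the transcriptome and 584, 595 and 633 in the translatome. The libraries did not overlap in either organ, and the translatome was lower in all 6 tissue samples. The fitted log2 fold change was -2.45 (SE 0.138, edgeR adjusted p = 3e-09) in brain and -1.93 (SE 0.0885, adjusted p = 8.4e-08) in kidney, that is 5.46-fold and 3.81-fold lower. Kcnq1ot1 held 550, 932 and 843 reads in the brain transcriptome and 103, 86 and 67 in the translatome. In kidney it held 3520, 2955 and 1507 reads in the transcriptome and 276, 260 and 338 in the translatome. These too were lower in every tissue sample, with log2 fold changes of -2.64 (SE 0.138, adjusted p = 1.5e-09) and -2.34 (SE 0.172, adjusted p = 1.4e-06). The third kidney sample stood apart, with a translatome to transcriptome ratio of 0.323 in shares of library reads, against 0.164 and 0.152 in the other two. Airn, read from the opposite strand of the Igf2r locus, held 50, 84 and 41 reads in the brain transcriptome and 41, 29 and 37 in the translatome. Its log2 fold changes were -0.17 (SE 0.244, edgeR adjusted p = 0.58) in brain and -0.19 (SE 0.0935, adjusted p = 0.12) in kidney, and neither was called. At these read numbers the 95% interval of the brain log2 fold change ran from -0.646 to 0.31.

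Peg13 was the noncoding member that was higher on ribosomes in kidney as well as in brain. It had 9.00, 10.0 and 9.87 RPKM in the kidney transcriptome and 17.2, 18.1 and 19.3 in the translatome. The log2 fold change was 0.92 (SE 0.0592, edgeR adjusted p = 5.9e-07). Each translatome library exceeded each transcriptome library, and the ratios of library shares were 1.91, 1.81 and 1.97 in the kidney samples against 1.49, 1.65 and 1.65 in the brain samples. Trappc9, the host of Peg13 on the same strand, had 18.6 ± 0.155 RPKM in the brain transcriptome and 17.7 ± 0.193 in the translatome (SD, n = 3). Reads from the intron of Trappc9 where Peg13 lies would be counted for Peg13.

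Of the coding genes, Mest was higher and Igf2r lower in the translatome of both organs. Mest had 137, 138 and 144 RPKM in the brain transcriptome and 185, 181 and 174 in the translatome. In kidney it had 1048, 1082 and 1061 RPKM in the transcriptome and 1625, 1544 and 1415 in the translatome. The libraries of the 2 kinds did not overlap, with log2 fold changes of 0.44 (SE 0.0526, edgeR adjusted p = 5.5e-06) and 0.59 (SE 0.0792, adjusted p = 0.00011). Without kidney translatome replicate 2 the adjusted p of Mest in kidney was 0.0015, above the threshold of 0.001. Within the run that held 3 kidney transcriptomes and 1 translatome its log2 fold change was 0.54, with no spread of its own for the single library. Igf2r had 16.5, 15.7 and 16.4 RPKM in the brain transcriptome and 9.50, 9.35 and 8.57 in the translatome. In kidney Igf2r had 55.2, 55.2 and 53.7 RPKM in the transcriptome and 42.5, 40.5 and 38.3 in the translatome. It was thus lower on ribosomes in every tissue sample, by log2 fold changes of -0.80 (SE 0.0514, adjusted p = 1.2e-08) in brain and -0.43 (SE 0.05, adjusted p = 3.3e-05) in kidney.

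The other coding genes changed little or not at all between total and ribosome RNA. Grb10 had 95.9, 89.3 and 84.8 RPKM in the brain transcriptome and 72.3, 74.1 and 66.2 in the translatome (log2 fold change -0.32, SE 0.0622, edgeR adjusted p = 0.00053). That call was lost without brain transcriptome replicate 1 or any 1 brain translatome library, with adjusted p between 0.0012 and 0.0037. In kidney Grb10 had a log2 fold change of -0.29 (adjusted p = 0.0047). Igf2 differed between the brain samples far more than between the kinds of RNA, with 66.3, 93.3 and 81.8 RPKM in the transcriptome and 65.8, 89.6 and 75.6 in the translatome (log2 fold change -0.05, adjusted p = 0.71). Peg3 had 41.7 ± 3.80 and 40.8 ± 1.81 RPKM in brain (adjusted p = 0.98). Cdkn1c had 83.8 ± 9.08 and 97.4 ± 1.98 RPKM in brain (adjusted p = 0.0064) and 445 ± 25.3 and 452 ± 26.6 in kidney (adjusted p = 0.8).

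The same-numbered transcriptome and translatome libraries came from the same tissue sample, and a fit with the sample as a block called more genes. In brain it added Cdkn1c (log2 fold change 0.25, edgeR adjusted p = 0.00021). In kidney it added Peg3 (-0.19, edgeR adjusted p = 1.6e-06) and, at lower p, Igf2 (-0.33) and Grb10 (-0.29), so that 8 of the 10 genes were called there in place of 5. Over all 19336 genes the block called 9496 in kidney, against 2880 higher and 3049 lower without it. The kidney block fit found no spread of single genes around the shared trend and used that trend for every gene, so its p-values are the smaller for it.

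**Figure D2:**
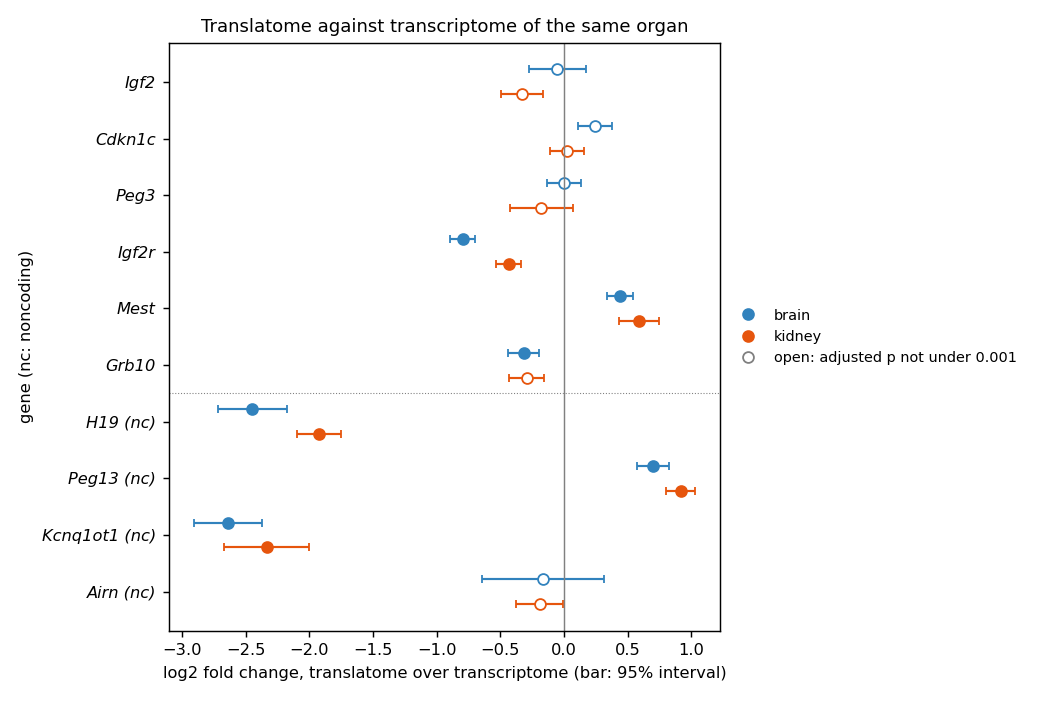
Fitted log2 fold change of the translatome over the transcriptome of the same organ (x axis) for the 10 genes (y axis), brain in blue and kidney in orange. Filled points passed an adjusted p under 0.001, bars are 95% intervals, and the 4 noncoding genes lie below the dotted line. H19 and Kcnq1ot1 lie far to the left in both organs and Peg13 to the right.

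Whether the ribosome share differed between the organs was tested as an interaction over 12 libraries. None of the 10 genes was called by edgeR, against 2.35% of 20108 genes with a higher and 4.12% with a lower ratio in brain. At an unadjusted p under 0.05 there were 3, and as many at an adjusted p under 0.05, which 4647 of all genes passed. DESeq2 called 2 members, Igf2r (-0.39, DESeq2 adjusted p = 1.3e-06) and Mest (-0.17, DESeq2 adjusted p = 0.00079), and 2709 genes over all. In edgeR, Igf2r came nearest, with a ratio lower in brain by 0.38 on the log2 scale (SE 0.0759, edgeR adjusted p = 0.0018), followed by H19 (-0.54, SE 0.183, adjusted p = 0.045). With the tissue sample as a block both were called, Igf2r at -0.38 (adjusted p = 1.9e-05) and H19 at -0.54 (adjusted p = 1.2e-07). Red blood cell RNA also differed between the kinds of library: 9 globin and red cell markers summed to 476 to 906 RPKM in the brain transcriptome and 155 to 245 in the translatome, and to 820 to 1089 and 102 to 194 in kidney. Of the 9, 2 or 3 were at 0 reads in each group. Its part in these values was not tested.

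Lists of related genes were read beside the members. Of 29 tested imprinted genes elsewhere in the genome, 11 were higher and 9 lower on brain ribosomes, and 5 and 7 in kidney. Their median log2 fold changes were 0.11 and 0.12, against -0.01 and -0.03 over all genes. Magel2 (-1.82), Ppp1r9a (-1.27), Rasgrf1 (-1.25) and Zdbf2 (-1.07) were the largest in brain. Of 38 tested neighbours in the members' own clusters, 5 were higher and 3 lower in brain, and of 37 in kidney, 3 and 6. Among them Kcnq1, the potassium channel gene that holds Kcnq1ot1, was higher on brain ribosomes (log2 fold change 1.47, SE 0.184, edgeR adjusted p = 8.6e-06), where Kcnq1ot1 was lower. Of 23 genes of IGF signalling, 3 were higher and 6 lower in brain, and 3 and 4 in kidney, with Igfbp7, an IGF-binding protein that is strong in vessels, the largest (1.33 in brain). Of 6 CIP/KIP and INK4 inhibitors related to Cdkn1c, 2 were higher and none lower in either organ. The 3 noncoding RNAs of the Dlk1-Dio3 cluster were all lower in both, with medians of -5.14 and -3.57, further down than H19.

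Igf2 and H19 are neighbours that share enhancers, so their ratio was formed within each library. It needs no scaling between libraries. The H19 RPKM was 1.44, 1.44 and 1.5 times that of Igf2 in the brain transcriptome, and 0.250, 0.273 and 0.301 times in the translatome. In kidney the ratio was 2.30, 2.29 and 2.29 in the transcriptome and 0.707, 0.760 and 0.770 in the translatome. It varied little within these 4 groups, although both genes varied between the brain samples, and it was higher in kidney than in brain in both kinds of RNA. Brain ECs had ratios of 0.291, 0.408 and 0.284, near those of the brain translatome, and kidney ECs 0.655, 0.721 and 0.715, near those of the kidney translatome. The Emx1 lineage stood above the brain translatome with 0.543, 0.584 and 0.479. Reads on the 4 noncoding genes made up 36.0 to 36.8% of all reads on the 10 genes in the kidney transcriptome and 12.9 to 14.4% in its translatome. In brain they made up 26.6 to 28.9% and 25.6 to 28.4%, where H19 was lower and Peg13 higher on ribosomes.

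**Figure D3:**
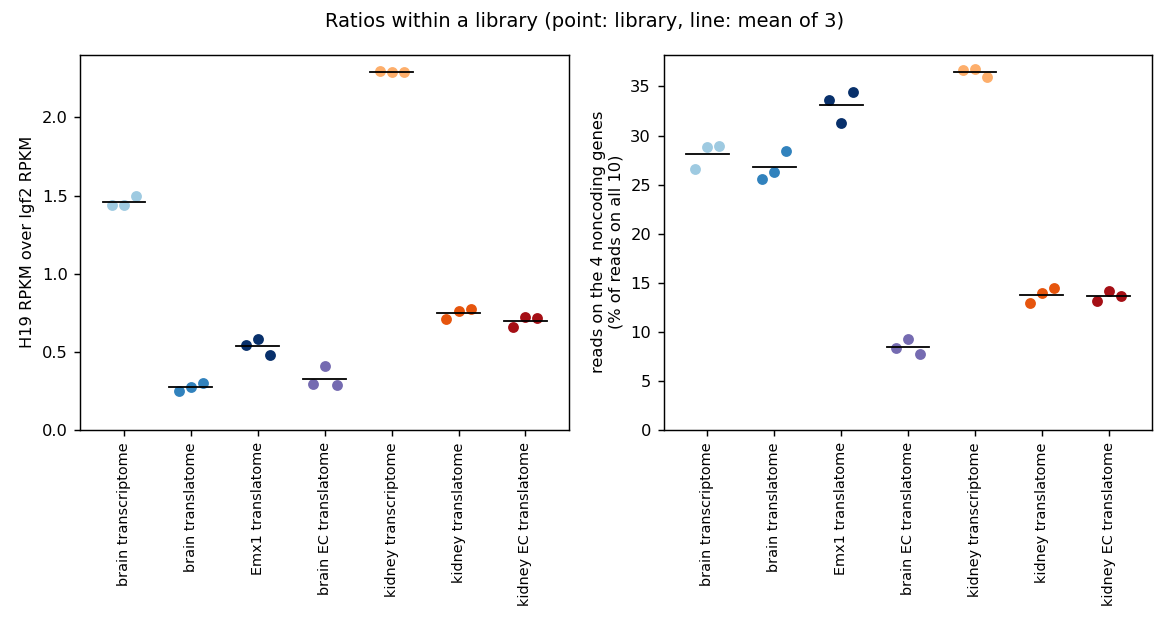
Left, H19 RPKM divided by Igf2 RPKM in each library. Right, reads on the 4 noncoding genes as a percentage of reads on all 10. Points are libraries, lines the mean of 3, and both axes start at 0. The kidney transcriptome has the highest ratio (2.29 to 2.30) and the brain translatome the lowest mean (0.250 to 0.301), overlapping brain ECs.

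The brain was next set against the kidney. Of the 10 genes, 9 were lower in brain than in kidney and Peg13 was higher, both in the transcriptomes and in the translatomes. Of all genes, 27.2% were higher and 26.3% lower in the brain transcriptome (19841 tested), and 27.2% and 26.2% in the translatome (19241 tested). In the transcriptomes H19 was 17.2-fold lower in brain (log2 fold change -4.10, SE 0.147, edgeR adjusted p = 7.5e-10), the most of the 10. Igf2 followed at 11.1-fold (-3.48, SE 0.132, adjusted p = 1.2e-09). It had 1025, 1019 and 965 RPKM in the 3 kidney libraries, each over 10 times the highest brain library. Airn was 10.6-fold lower, Mest 6.41-fold, Cdkn1c 4.65-fold, Kcnq1ot1 3.66-fold, Grb10 3.45-fold, Igf2r 2.96-fold and Peg3 2.78-fold. None of these genes' libraries overlapped between the organs, and the share of all genes without such overlap was not counted. In contrast Peg13 was 8.47-fold higher in brain (log2 fold change 3.08, SE 0.0481, adjusted p = 1.5e-12), with 70.9, 70.1 and 73.4 RPKM against 9.00, 10.0 and 9.87. On ribosomes H19 was 24.9-fold lower in brain (-4.64), Igf2 9.26-fold lower (-3.21) and Peg13 7.19-fold higher (2.85). A lower value can reflect fewer copies per cell or fewer cells of the type that makes the RNA, and bulk samples cannot tell these apart.

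Markers of several cell types differed between the organs with these genes. In the transcriptomes the 9 endothelial markers summed to 98.5 to 121 RPKM in brain and 305 to 339 in kidney, and all 9 were lower in brain (8 of 9 in the translatomes). The 7 mural markers summed to 39.1 to 50.9 against 117 to 145.2, with 5 lower in brain and none higher, and the 7 of leptomeninges and fibroblasts to 122 to 139 against 577 to 691, with 4 lower and 1 higher. The 6 neural markers, of which 1 was at 0 reads in the kidney transcriptome, summed to 1865 to 1959 against 7.21 to 9.69, and all 6 were higher in brain, as was Peg13. The part of these cell types in the members' values was not tested.

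**Figure D4:**
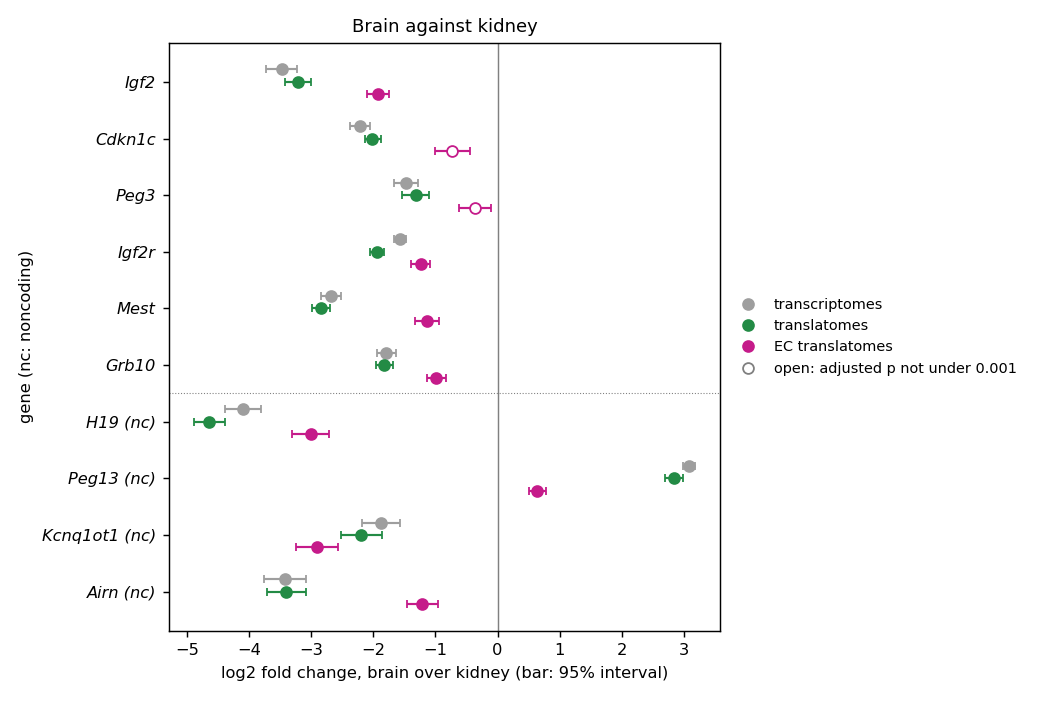
Fitted log2 fold change of brain over kidney (x axis) for the 10 genes (y axis) in the transcriptomes, the translatomes and the EC translatomes. Filled points passed an adjusted p under 0.001 and bars are 95% intervals. Peg13 alone lies to the right of 0, and its EC value (0.64) is nearer to 0 than its whole-organ values (3.08 and 2.85).

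The neighbours of the members followed in part. Of 38 tested in the transcriptomes, 8 were higher and 17 lower in brain (median -0.59, against -0.02 over all genes). The largest were Th (5.83), Lsp1 (-5.69), Phlda2 (-5.02), Cpa4 (4.15) and Klf14 (-4.03). Igf2as, read antisense to Igf2, had 9.23 ± 0.103 RPKM in the kidney transcriptome and 0.545 ± 0.116 in brain. Copg2, which overlaps the end of Mest, had 29.2 ± 0.687 and 32.5 ± 0.0317 RPKM (SD, n = 3), while Mest differed 6.41-fold. Imprinted genes elsewhere leaned to brain, with 15 of 29 higher and 6 lower (median 0.58), among them Nap1l5 (6.70), Rasgrf1 (6.68) and Magel2 (5.54) as well as Snrpn, listed at 0 in all kidney transcriptome libraries. Slc38a4 was lower in brain (-5.03). Of the 23 IGF signalling genes, 16 were lower and 5 higher in brain (median -1.13), the largest being Grb7 (-8.01), Igfbp6 (-4.63), Irs4 (3.59), Pappa (-3.05) and Igf1 (-2.85). Of the 6 inhibitors related to Cdkn1c, 3 were higher in brain and none lower, among them Cdkn2c (2.08) and Cdkn1b (1.80), the opposite direction to Cdkn1c. In the translatomes 7 of 37 neighbours were higher and 14 lower, as were 14 and 7 of the 29 imprinted genes elsewhere, 5 and 13 of the IGF genes and 4 and none of the inhibitors.

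Endothelial cells were then compared with their whole organ, as translatomes. In brain ECs 8 of the 10 genes were higher and Peg13 was lower, where 24.8% of 19103 genes were higher and 21.4% lower. In kidney ECs 5 were higher and none lower, against 16.7% and 15.0% of 18940 genes. Mest led in brain and Peg13 in kidney.

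All 6 coding genes were higher in brain ECs. Mest had 1050, 1166 and 1101 RPKM in the EC libraries and 185, 181 and 174 in the brain translatome, a log2 fold change of 2.87 (SE 0.0941, edgeR adjusted p = 1.7e-11). Igf2 had 289, 279 and 264 RPKM against 65.8, 89.6 and 75.6 (2.12, SE 0.107, adjusted p = 1.2e-09). Igf2r had 20.6, 20.1 and 22.2 against 9.50, 9.35 and 8.57 (1.49, SE 0.0695, adjusted p = 5.5e-10). Growth factor and clearance receptor were thus both higher, and no EC library overlapped a whole-brain library. Cdkn1c had 250, 156 and 187 RPKM against 95.4, 99.3 and 97.4 (1.31, SE 0.131, adjusted p = 1.2e-06). Grb10 (1.23, SE 0.0805) and Peg3 (0.83, SE 0.0706) were higher as well. Cdkn1c was the most variable among the EC libraries, and without the first of them its log2 fold change was 1.11.

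H19 and Airn, of the noncoding genes, were higher in brain ECs. H19 had 84.0, 114 and 75.0 RPKM in ECs and 16.5, 24.4 and 22.7 in the brain translatome (log2 fold change 2.39, SE 0.163, edgeR adjusted p = 2.4e-08). Airn held 264, 299 and 278 reads against 41, 29 and 37 (2.57, SE 0.181, adjusted p = 3.4e-08). Airn and Igf2r were both higher. They overlap over 28354 bases on opposite strands, so reads from introns of Igf2r could be counted for Airn. Peg13 had 55.9, 55.1 and 56.6 RPKM against 105, 115 and 120, 1.66-fold lower (-0.74, SE 0.0735, adjusted p = 1.2e-06). Kcnq1ot1 held 89, 120 and 95 reads in ECs (-0.15, adjusted p = 0.54) and could not be separated from the whole brain. Kcnq1, which contains it, had 14.7 ± 0.409 RPKM in brain ECs and 1.15 ± 0.138 in the brain translatome.

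Other cell types moved with the brain EC comparison. The 7 markers of leptomeninges and fibroblasts summed to 688, 344 and 381 RPKM in the EC libraries against 133 to 149 in the brain translatome, and 6 of the 7 were called higher. The first EC library was the highest for these markers and for Cdkn1c. The 7 mural cell markers summed to 28.2 to 31.7 against 45.8 to 64.1, with 1 higher and 5 lower, and 5 macrophage markers to 16.1 to 17.9 against 27.8 to 33.2. No marker of these 3 lists was at 0. Their part in the result was not tested.

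In kidney ECs the changes were smaller. Peg13 had 35.8, 40.6 and 34.7 RPKM in ECs and 17.2, 18.1 and 19.3 in the kidney translatome, a log2 fold change of 1.38 (SE 0.0714, edgeR adjusted p = 4.4e-08). Mest had 2402, 2890 and 2257 RPKM against 1625, 1544 and 1415 (1.07, SE 0.101, adjusted p = 4.8e-06). The EC libraries of both genes lay above all whole-kidney libraries. Igf2 (0.75, SE 0.0936), Igf2r (0.69, SE 0.0685) and H19 (0.68, SE 0.0857) were higher too. Cdkn1c had 362, 322 and 327 RPKM against 454, 425 and 478, and Peg3 81.5, 62.5 and 91.8 against 140, 95.4 and 114. These RPKM values were lower in every EC library, yet the fitted log2 fold changes were -0.07 (adjusted p = 0.46) and -0.21 (adjusted p = 0.29).

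Markers of the other kidney cell types were lower in the EC libraries. Those of nephron progenitors summed to 26.2 to 37.6 RPKM against 244 to 278 in the kidney translatome, those of kidney stroma to 40.7 to 55.0 against 183 to 234, and those of the ureteric bud to 16.8 to 24.3 against 89.7 to 128, with 5 of 5 lower in each list. Of 7 mural markers 2 were higher and 5 lower, and 3 of 7 of leptomeninges and fibroblasts and 5 of 5 of macrophages were lower. Of 5 markers of podocytes and the early nephron 3 were higher and 2 lower. No marker of these lists was at 0. Their part in the members' values was not tested.

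The difference between the RPKM and the fitted values of Cdkn1c and Peg3 came from the scaling between libraries, which shifted the median gene by -0.37 in this comparison when total counts were used in place of TMM factors. Scaled by total counts, 3 of the 10 genes were called in kidney ECs: Peg13 higher (1.013), Mest higher (0.70) and Cdkn1c lower (-0.44, edgeR adjusted p = 0.00038). Over all 18940 genes, 7219 were called with that scaling. Igf2 (0.38), Igf2r (0.32) and H19 (0.31) then missed the threshold, and Airn (0.29 with TMM factors, -0.08 with total counts) and Grb10 (0.29 and -0.08) changed sign. On the RPKM scale, whose length term for Airn varied between libraries, limma called Airn lower in kidney ECs (-0.46 on log2(RPKM + 0.1), adjusted p = 0.0006, against 0.29 and adjusted p = 0.03 by edgeR on counts). The shift was -0.30 in the brain EC comparison and -0.18 and -0.19 between the organs, where the 10 genes kept their direction and their side of the threshold.

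Whether an EC library differed from its organ in the same measure in brain and kidney was tested as an interaction over 12 libraries. The EC over organ ratio was higher in brain for 8 of the 10 genes and lower for Peg13, where 16.5% of 19764 genes had a higher and 8.60% a lower ratio and the median over all genes was 0.15. The endothelial markers differed between the organs as well. Their median log2 fold change was 4.57 in brain ECs and 2.94 in kidney ECs (9 of 9 higher in both), and the whole-organ translatomes held 144 to 163 and 422 to 454 RPKM of them. The part of this difference in the members' values was not tested. For Airn the difference was 2.31 on the log2 scale (SE 0.197, edgeR adjusted p = 5.5e-08) and for Mest 1.83 (SE 0.130, adjusted p = 6.6e-09). Peg13, lower in brain ECs and higher in kidney ECs than in the organ, differed by -2.09 (SE 0.103, adjusted p = 8.3e-11). Kcnq1ot1 was not called (-0.60, adjusted p = 0.073).

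**Figure D5:**
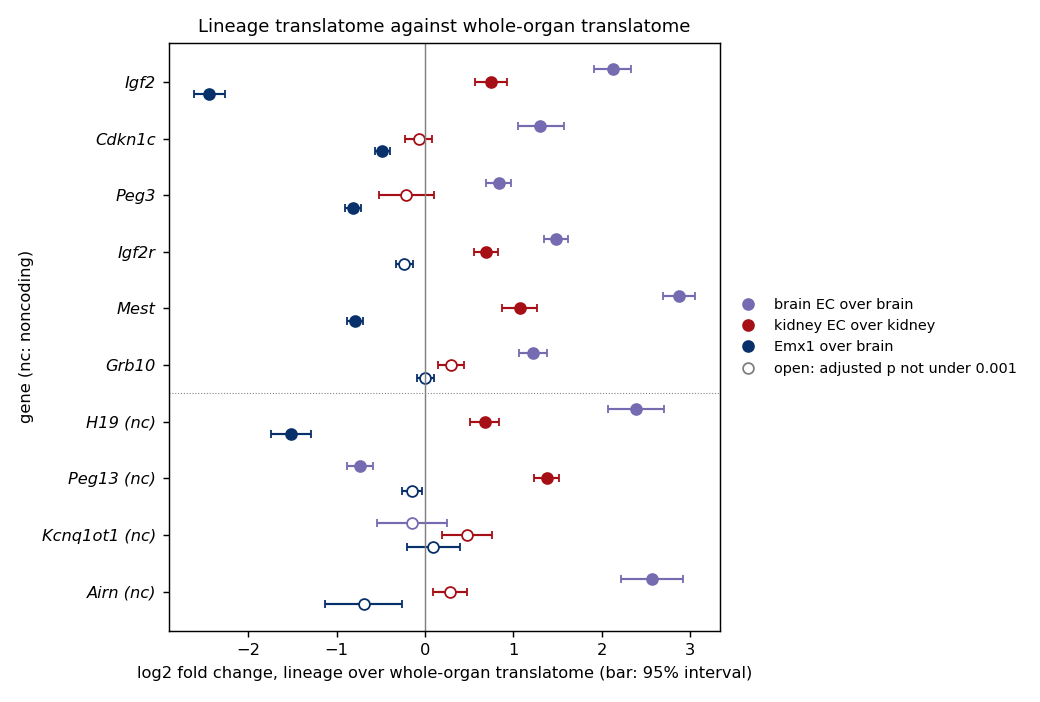
Fitted log2 fold change of a lineage translatome over the whole-organ translatome (x axis) for the 10 genes (y axis): brain ECs, kidney ECs and the Emx1 lineage. Filled points passed an adjusted p under 0.001 and bars are 95% intervals. Mest has the largest brain EC value (2.87), Igf2 the lowest Emx1 value (-2.44), and Peg13 lies on opposite sides of 0 in the 2 EC comparisons.

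Related genes showed where else ECs stood out. Of 23 IGF signalling genes, 12 were higher and 2 lower in brain ECs (median 0.58, against -0.01 over all genes), but 4 higher and 9 lower in kidney ECs (median -0.57, against -0.04). IGF-binding proteins led in brain ECs, with Igfbp7 at 916 RPKM (log2 fold change 4.09), Igfbp3 (3.98), Igfbp4 (2.72) and Igfbp6 (2.40), beside the adaptor Grb7 (5.20). Igfbp3 (2.29) and Igf1 (1.92) were the largest that were higher in kidney ECs, and Grb7 (-1.98) and Igfbp6 (-1.73) were lower there. Cluster neighbours were mixed, with 8 higher and 7 lower of 37 in brain ECs and 4 and 8 in kidney ECs. Kcnq1 (3.98 and 1.79) and Cd81 (2.38 and 1.27), a tetraspanin gene of the chromosome 7 cluster, were higher in both organs. Lsp1 (-2.56) and Phlda2 (-1.94) were lower in kidney ECs. Of 29 imprinted genes elsewhere, 10 were higher and 11 lower in brain ECs and 6 and 2 in kidney ECs. Among them the neuronal genes Nnat (-2.98), Ndn (-2.38), Snrpn (-2.10) and Inpp5f (-2.09) were lower in brain ECs and Ppp1r9a (2.97 and 2.10) was higher in both. Of the inhibitors related to Cdkn1c, 2 were higher and 2 lower in brain ECs and 1 higher in kidney ECs, with Cdkn1a, the p21 gene, at 3.21 and 2.20.

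Set directly against each other, brain ECs had lower levels than kidney ECs of 7 genes and a higher level of Peg13, where 20.1% of 19238 genes were higher and 16.9% lower in brain ECs. H19 was 8.04-fold lower in brain ECs (log2 fold change -3.01, SE 0.149, edgeR adjusted p = 3.1e-08), with 84.0, 114 and 75.0 RPKM against 737, 828 and 698. Kcnq1ot1 held 89, 120 and 95 reads against 672, 408 and 553, 7.49-fold lower (-2.91, SE 0.175, adjusted p = 1.4e-07). Igf2 was 3.80-fold lower, Igf2r 2.36-fold, Airn 2.31-fold, Mest 2.19-fold and Grb10 1.98-fold. Cdkn1c (-0.73, adjusted p = 0.0012) and Peg3 (-0.36, adjusted p = 0.033) were not called, although their libraries did not overlap. The same-numbered EC libraries of the organs deviated together, and with the number as a block Cdkn1c was called (-0.75, adjusted p = 0.00019). That pairing was drawn from these same data. Peg13 was 1.56-fold higher in brain ECs (0.64, SE 0.0697, adjusted p = 1.5e-05), with 55.9, 55.1 and 56.6 RPKM against 35.8, 40.6 and 34.7. The 6 neural markers summed to 369 to 480 RPKM in brain ECs and 12.1 to 13.8 in kidney ECs, and their part in the Peg13 value was not tested. Of 23 IGF genes, 8 were higher and 8 lower in brain ECs, with Igfbp7 (4.97) and Igf1 (-4.89) at the extremes. The other lists gave 8 higher and 6 lower of 37 neighbours, 14 and 6 of 29 imprinted genes elsewhere, and 4 and none of 6 inhibitors.

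The Emx1 lineage was compared with the whole brain translatome. Of the 10 genes, 5 were lower and none higher, where 9.20% of 19006 genes were higher and 12.8% lower. Igf2 had 13.3, 12.9 and 14.0 RPKM against 65.8, 89.6 and 75.6, 5.44-fold lower (log2 fold change -2.44, SE 0.0882, edgeR adjusted p = 1.7e-11). H19 had 7.21, 7.51 and 6.70 RPKM against 16.5, 24.4 and 22.7 (-1.52, SE 0.114, adjusted p = 6e-08). All Emx1 libraries of both genes lay below all whole-brain libraries. Peg3 had 22.7, 22.2 and 22.1 against 38.8, 41.4 and 42.3 (-0.82, SE 0.0466, adjusted p = 2.7e-09). Mest (-0.79, SE 0.0464) and Cdkn1c (-0.48, SE 0.0417) were also lower. Among the noncoding genes Peg13 had 101, 92.5 and 103 RPKM against 105, 115 and 120 (-0.15, adjusted p = 0.049), close to the whole brain. Airn held 52, 16 and 31 reads (-0.70, adjusted p = 0.019), and Kcnq1ot1 215, 69 and 129 (0.10, adjusted p = 0.64). Igf2r was at -0.23 (adjusted p = 0.0012), and Grb10 at 0.00 with a direction that changed with the scaling.

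Markers of vessels, meninges, macrophages and other brain regions moved with these genes. The 9 endothelial markers summed to 12.5 to 14.9 RPKM in the Emx1 libraries and 144 to 163 in the brain translatome, and all 9 were lower. All 7 mural markers (7.00 to 7.78 against 45.8 to 64.1), all 7 of leptomeninges and fibroblasts (33.4 to 41.3 against 133 to 149) and all 5 of macrophages (1.88 to 2.28 against 27.8 to 33.2) were lower as well. Ventral telencephalon markers summed to 56.6 to 60.1 RPKM against 241 to 263 (6 of 6 lower) and choroid plexus markers to 317 to 391 against 529 to 649 (2 of 5 lower). None of these markers was at 0, and their part in the result was not tested. Of 37 neighbours, 2 were higher and 9 lower (median -0.73), with Kcnq1 (-3.49), Th (-2.16) and Ddc (-1.88) the largest. Of 29 imprinted genes elsewhere, 3 were higher and 13 lower (median -0.44), with Calcr (-2.14), Dcn (-2.13) and Asb4 (-1.85) the largest. Of 23 IGF genes, 4 were higher and 4 lower, with Igfbp7 at -6.06, and of the 6 inhibitors 2 were higher.

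Across the 21 libraries, 8 of the 10 genes varied together. As a description over libraries that share organs and runs, the Pearson r of log2(RPKM + 1) between pairs of these 8 ran from 0.802 (H19 and Mest) to 0.985 (Cdkn1c and Airn), with 0.936 for Igf2 and H19. Peg13 correlated negatively with every other member, from -0.719 with Mest to -0.938 with Grb10. Kcnq1ot1 was looser, from 0.326 with Mest to 0.755 with H19 among these 8. Among 13236 rows with a mean of at least 1 RPKM, the row most like Mest was Calcrl (r = 0.995), an endothelial receptor gene. The rows most like the others were Mylk for Igf2 (0.991), Prkaa1 for H19 (0.991), Foxc2 for Cdkn1c (0.990), Ddr2 for Peg3 (0.984), Npdc1 for Peg13 (0.989), Snx5 for Airn (0.995), Reep4 for Igf2r (0.992), Ermp1 for Grb10 (0.993) and Rpl12 for Kcnq1ot1 (0.949).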

How the data were processed

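RNA from 21 libraries (7 groups of 3) of E14.5 mouse embryos was analysed. The authors prepared TruSeq libraries, mapped the reads with RUM 2.04 to GRCm38 (mm10) and counted them on RefSeq genes with rpkmforgenes. The deposited count is the number of reads per gene, without normalization. The deposited RPKM was made by the authors from these reads, by transcript length and mRNA reads. Depth was 21760652 to 79231692 reads a library.

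The members and lists were chosen with earlier results of these data known. A symbol on several rows was taken from the row with most reads. Counts were tested in R 4.3.3 with edgeR 4.0.16 (TMM factors, quasi-likelihood), in 8 comparisons on 6 libraries each and 2 interactions on 12, over genes with at least 1 count and with Benjamini-Hochberg adjustment (threshold 0.001). The 95% intervals are normal intervals from the SE. The fits were tested on simulated data. For a 2-fold change (log2 of 1), 98 of 100 changed genes were recovered for brain ribosome against total RNA (19100 genes), and 80 of 100 for its interaction with organ (19829 genes). The changes were placed only in well-counted genes, with the same spread for every gene and no pairing of tissue samples. These rates therefore need not hold for genes with few reads, such as Airn in brain. No record says that the replicates are separate litters, so p-values measure the spread between these samples. Alternatives were DESeq2 1.42.0, limma 3.58.1 on log2(RPKM + 0.1) and log2(RPKM + 1), other scaling factors, a minimum of 10 counts in 3 libraries, 1 fit of 21 libraries, a replicate block, 1 sequencing run and each library left out.

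Same-numbered transcriptome and translatome libraries came from the same tissue sample, per the study's sample list. Their deviations from the group means correlated at 0.562 to 0.657 in brain and 0.73 to 0.77 in kidney. The brain and kidney EC libraries correlated at 0.174 to 0.283 with the same number and -0.208 to -0.029 otherwise. Deviations from a group mean cancel out, so positive same-number values bring negative ones elsewhere. These numbers were also taken as pairs, a pairing drawn from these same values.

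Besides the 10 genes, a list gene was named if it passed the threshold with an absolute log2 fold change of at least 1 and a mean of at least 1 RPKM in either group, at most 5 per list and comparison. Genes overlapping a member were also named, as were the 3 rows most like each member by Pearson r, of which the first is given.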

Additional observations from a re-analysis of the deposited data

Results flagged for a closer look

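For 9 of the 10 genes the difference between an EC translatome and its whole-organ translatome was not the same in brain and kidney, by the interaction in the 12-library fit (edgeR, brain minus kidney, log2 scale). It was positive for Airn (2.312), Mest (1.827), H19 (1.745), Cdkn1c (1.405), Igf2 (1.401), Peg3 (1.07), Grb10 (0.962) and Igf2r (0.824), and negative for Peg13 (-2.089). Of all 19764 genes, 16.5% had a higher and 8.60% a lower ratio in brain, and the median was 0.15. The call of Peg3 was lost without brain translatome replicate 1 (1.03, adjusted p = 0.0013). Igf2, for example, had 277 RPKM in brain ECs and 77.0 in the brain translatome, against 1084 in kidney ECs and 811 in the kidney translatome. The 9 endothelial markers had a median of 4.57 in brain ECs and 2.94 in kidney ECs, and summed to 144 to 163 RPKM in the brain translatome and 422 to 454 in the kidney translatome. Markers of leptomeninges and fibroblasts were higher in brain ECs than in the brain translatome (6 of 7) and lower or not called in kidney ECs (3 of 7 lower). The part of either list was not tested.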

How the results depend on the processing

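Across 100 gene values per alternative, DESeq2 kept direction and call for 91, RLE factors for 97, the minimum of 10 counts for 99 and the single fit of 21 libraries for 97. Leaving out each library in turn kept 691 of 720 values. It lost 6 calls, which concern Grb10 in brain, Mest in kidney and Peg3 in the EC interaction, all given above. At an adjusted p under 0.05, 3 members were called in the translatome to transcriptome interaction, 8 in kidney ECs and 8 in the Emx1 lineage. At that threshold the calls over all genes were 10855 (brain translatome against transcriptome), 9754 (kidney), 4647 (their interaction), 10509 (kidney ECs), 8580 (Emx1), 11469 (brain against kidney ECs) and 8522 (EC interaction). The replicate block gave 8 members and 9496 of 19336 genes in kidney translatome against transcriptome, and 2 members and 3445 of 20108 genes in the interaction. With the block the brain log2 fold change of Peg3 was 0.001. In the other comparisons it changed no member's call except Cdkn1c in brain and between the ECs, given above. Within 1 sequencing run 3736 genes were called in kidney (fewer libraries), and Igf2 was at 0.2 in brain. In the translatome to transcriptome interaction DESeq2 called 2 members and 2709 genes, total counts called 1 member, and leaving out a library gave 850 (without kidney transcriptome replicate 2) to 1248 genes. The cause was not tested.

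In kidney ECs total counts called 3 members, and limma on log2(RPKM + 0.1) and on log2(RPKM + 1) called 2 each, Peg13 higher and Airn lower. Total counts called 7219 of all 18940 genes there, and the limma calls over all genes are not given here. There Airn was at -0.083, -0.461 and -0.433 and Grb10 at -0.077, -0.045 and -0.045 in these settings. The limma values of Airn (adjusted p = 0.0006 and 0.0009) were called in the opposite direction to edgeR (0.286, adjusted p = 0.03), and the cause was not tested. Limma on log2(RPKM + 1) also lost the calls of Mest in kidney (0.52) and Grb10 in brain (-0.341), translatome against transcriptome, of Cdkn1c in brain ECs (0.986), of Mest in kidney ECs (0.713) and of Kcnq1ot1 between the organ translatomes (-0.162). Limma called 2286 and 2021 genes in the Emx1 comparison. The other values that changed sign were not called in either setting. With limma Airn was at 0.358 and 0.216 in brain and at 0.062 and 0.059 in kidney, translatome against transcriptome. In the interaction Airn was at -0.003 (RLE), -0.008 (total counts), -0.006 (DESeq2) and -0.009 (single fit). Grb10 in the Emx1 lineage was at -0.009 (RLE and DESeq2), -0.048 (total counts), -0.016 (minimum of 10 counts) and -0.034 (limma, both). Leaving out 1 library gave these ranges in the brain translatome against transcriptome: Igf2 -0.174 to 0.042, Peg3 -0.093 to 0.058 and Airn -0.369 to 0.056. It gave -0.02 to 0.07 for Cdkn1c in kidney, -0.199 to 0.239 for Airn and -0.077 to 0.003 for Grb10 in the interaction, and -0.04 to 0.036 for Grb10 and -0.004 to 0.213 for Kcnq1ot1 in the Emx1 comparison. In the Emx1 comparison Igf2r was called by DESeq2 (-0.247) and with total counts (-0.286), and Cdkn1c was not called in the single fit (-0.482). Of the 30 rows most like the members, 18 stayed with log2(RPKM + 0.1).

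Airn held 29 to 41 and Kcnq1ot1 67 to 103 reads in the brain translatomes, so small changes in them are not resolved at this depth.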
